A study of Mus musculus with 9 samples.

Results

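The heat shock proteins and their partners are the chaperones that fold, refold and hand on the proteins of a cell. They were taken here as every probe set of the Affymetrix Mouse430_2 array that is annotated to a single gene symbol beginning with Hsp followed by a digit or by a, b, d, e or h, with Dnaja, Dnajb or Dnajc, or with Cct or Bag followed by a digit. The rule uses names and no measured value. It found 209 of the 45037 probe sets in the table, which stand for 87 of 18193 genes. A filter on low values, which asked that at least 3 of the 9 arrays exceed the 40th percentile of all values on the same array, kept 158 of these probe sets out of 29293 in all. It left 77 member genes among 14208 genes tested, each read from whichever of its kept probe sets was brightest on average. The other 10 genes, which are Cct6b, Dnajb13, Dnajc5b, Dnajc5g, Dnajc22, Hspa1l, Hspa12b, Hspb2, Hspb7 and Hspb9, have 13 probe sets, none of which rose above 72.7 on any array. Hsp90ab1, the constitutive cytosolic HSP90, is not analysed here.

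Total RNA came from tissue punches of 3 regions of the mouse forebrain, with 3 arrays each. One was BNST, the bed nucleus of the stria terminalis, which belongs to the extended amygdala. Both others belong to the striatum: NAc, the nucleus accumbens, is ventral, and dStr is the dorsal striatum. All mice were killed under brief isoflurane and their brains cut in ice-cold sucrose solution into 300 µm slices, from which the punches were taken in a semi-frozen state. No group carried an allele or a drug of its own, and no strain, sex or age is given in the sources used here. The labels call the arrays biological replicates without saying that each came from a separate animal, so the p-values measure the spread between these samples.

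Proteins of the HSP70 family bind exposed hydrophobic stretches of unfolded proteins in a cycle driven by ATP. J-proteins (the DNAJ genes) deliver the clients and start ATP hydrolysis, and BAG proteins and HSP110 proteins release the nucleotide so that the client can leave. HSP90 matures signalling proteins, small heat shock proteins hold aggregating ones, and the chaperonins, CCT in the cytosol and Hspd1 with Hspe1 in mitochondria, fold proteins inside a closed chamber; neurons depend on several of these for synaptic vesicle cycling and for keeping aggregation-prone proteins soluble.

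Values are linear probe-set intensities as deposited, given below in the order of replicates 1, 2 and 3. Differences are on the scale of log2(intensity + 16), which understates folds of dim genes. A gene is said to differ, to be higher or to be lower by the test only where limma's moderated test gave an adjusted p under 0.05, adjusted by Benjamini-Hochberg over all 14208 genes. Each region enters 2 of the 3 comparisons, so the comparisons share arrays. Array medians ran from 93.9 to 102. Of the arrays, BNST 1 correlated most closely with NAc 3 across all genes tested (r = 0.966) and less with the other BNST arrays (0.934 and 0.948), and NAc 1 correlated with its own region at 0.938 and 0.909, genes not being independent replicates. Summed intensities of 2 marker lists separated BNST 1 from NAc 1 in the direction of their labels. The 8 tested BNST and extended amygdala markers summed to 7138 on BNST 1 and 1112 on NAc 1, and the 10 tested medium spiny neuron markers to 8048 and 20017. For the BNST markers NAc 1 nevertheless lay below NAc 2 and NAc 3 (2638 and 3020) and within the dStr range (847 to 1182). Over the member genes NAc 1 correlated most closely with BNST 2 (r = 0.964) and less with its own region (0.928 and 0.906). Counts are therefore also given without BNST 1 and NAc 1.

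Few chaperone genes differed between the 3 regions, and the 7 that did separated BNST from dStr. Between these regions 1 of 77 member genes was higher in BNST (1.30%, against 4.94% of all genes) and 6 were lower (7.79%, against 9.33%). The inducible HSP70 gene Hspa1a was the higher one. The lower ones were the small heat shock gene Hspb8, the J-protein genes Dnajb5, Dnajc2, Dnajc13 and Dnajc21 and the nucleotide exchange factor gene Bag5. Both shares are below those of the whole array on the deposited scale, but under quantile normalisation the share of higher calls is above it (11.7%, against 8.92%). Bag5 was also the single member lower in BNST than in NAc (1.30%, against 1.48% of all genes), and no member was higher there (against 0.760%). Between NAc and dStr limma's test called 0 members higher (0.950% of all genes) and 0 lower (1.10%). An unadjusted p under 0.05 was found for 7 members for BNST against NAc (9.09%, against 12.6% of all genes), for 20 for BNST against dStr (26.0%, against 29.0%) and for 8 for NAc against dStr (10.4%, against 13.1%). The moderated F test over the 3 regions called 5 members, namely Bag5, Hspa1a, Hspb8, Dnajc13 and Dnajc21 (6.49%, against 10.3%).

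**Figure D1:**
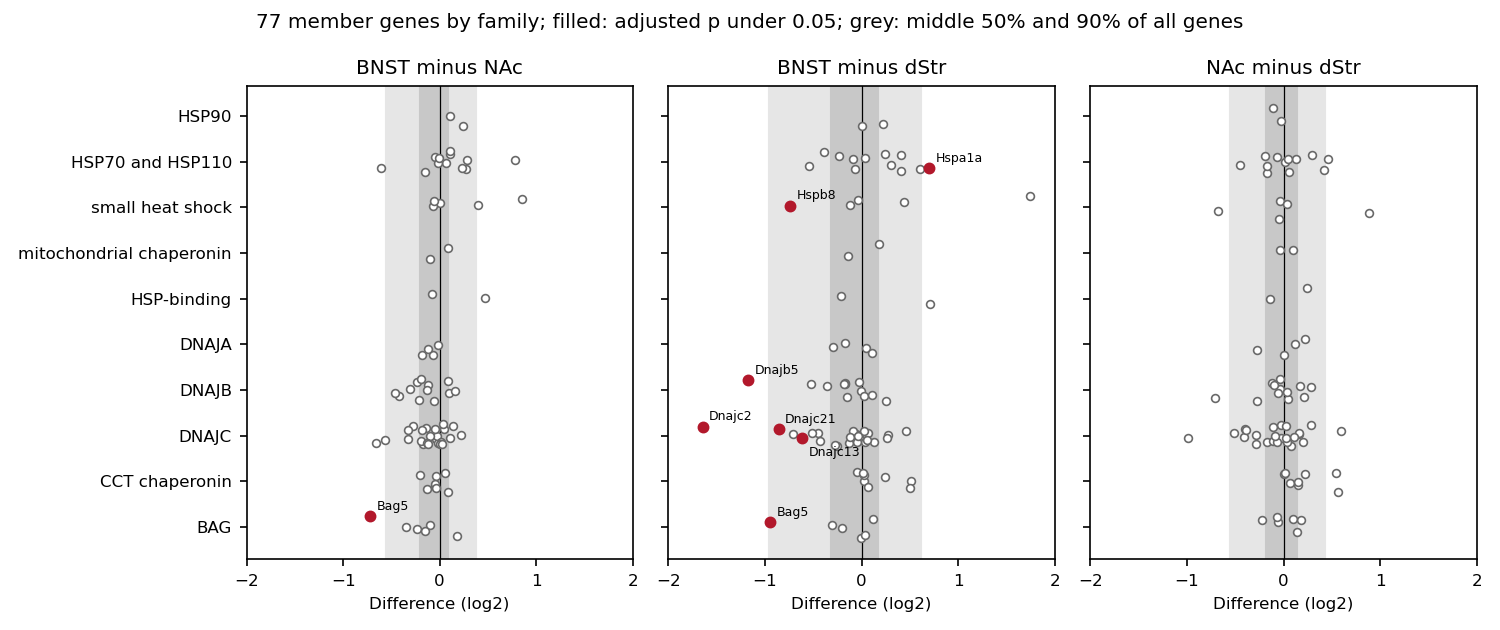
Each point is 1 of the 77 tested member genes, placed by family (vertical axis) and by its difference in mean log2(intensity + 16) between 2 regions (horizontal axis). Red points passed the test, and the dark and light grey bands hold the middle 50% and 90% of all 14208 genes. For BNST minus dStr 72 of the 77 members lie inside the light band, and the red points are Hspa1a on the right and 6 genes on the left.

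The sizes of the differences were those of the array at large or smaller. The median absolute difference of the members was 0.12 for BNST against NAc, 0.18 for BNST against dStr and 0.14 for NAc against dStr, compared with 0.15, 0.24 and 0.16 for all genes. Their signed medians were -0.05, -0.02 and 0.00, against -0.05, -0.06 and -0.01 for all genes. An absolute difference over 0.5 was found for 6, 16 and 8 members (7.79%, 20.8% and 10.4%), against 9.40%, 22.1% and 9.80% of all genes. Another scaling of the arrays changed the split of the calls. Under quantile normalisation 9 members were higher in BNST than in dStr (11.7%, against 8.92% of all genes) and 6 lower (7.79%, against 8.20%). Under centring on the array medians 4 were higher (5.19%, against 6.45%) and 6 lower (7.79%, against 8.48%), while the median difference of all genes moved from -0.06 to 0.06 and to 0.00. Without BNST 1 and NAc 1 the counts were 6 higher (8.61% of all genes) and 12 lower (20.6%) between BNST and dStr, 2 higher (2.46%) and 6 lower (13%) between BNST and NAc, and 0 higher (2.58%) and 1 lower (2.40%) between NAc and dStr.

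Single arrays also moved the counts. Between BNST and dStr 4 members were higher without BNST 1 and without NAc 1 and 2 without NAc 2 and without NAc 3, and 3 were lower without BNST 3 and without dStr 3. Bag5 was no longer called against NAc without BNST 2, BNST 3 or any array of NAc or dStr, and without NAc 3 Hsph1 took its place. Hspb8 was called lower in NAc than in dStr without BNST 1. The F test called 8 members without BNST 1, 3 without dStr 2, and 2 without BNST 2, BNST 3, dStr 1 or dStr 3. Shares over all genes were not counted for these single omissions.

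By the plainer measure of arrays that do not overlap, BNST stood above dStr for 14 members (18.2%, against 14.9% of all genes) and below it for 13 (16.9%, against 21.5%). The 14 are Hspa1a, Hspa1b, Hspa12a, Hspa13, Hsp90b1, Hspb6, Hspd1, Hspbp1, Cct6a, Cct7, Dnajb2, Dnajb8, Dnajc12 and Dnajc27. The 13 are Hspa8, Hsph1, Hspb8, Hspbap1, Dnajb4, Dnajb5, Dnajb11, Dnajc2, Dnajc13, Dnajc16, Dnajc21, Bag4 and Bag5. BNST stood above NAc for 6 members (against 5.79% of all genes) and below for 5 (8.85%), and NAc above dStr for 7 (9.11%) and below for 7 (10.0%). Tissue of this kind is a mixture, in which fewer cells of a type and less RNA per cell cannot be told apart.

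Neither of the 2 tested HSP90 genes passed in any comparison. Hsp90aa1, the inducible cytosolic form (1437497_a_at), read 4181, 3706 and 3632 in BNST, 2983, 3614 and 4145 in NAc and 3793, 3807 and 3857 in dStr. The 3 dStr arrays lay close together and within the range of BNST and of NAc, where NAc 1 was the lowest of all 9. The difference between BNST and dStr was 0.01 (95% confidence interval -0.31 to 0.32, adjusted p = 0.987). Hsp90b1, the form of the endoplasmic reticulum (1415889_a_at), read 1747, 1900.2 and 1767 in BNST, 1577, 1693 and 1319 in NAc and 1435, 1628 and 1577 in dStr. All 3 BNST arrays were above the other 6, but the difference of 0.22 from dStr (SE 0.13, adjusted p = 0.307) and of 0.24 from NAc (adjusted p = 0.532) did not pass. The other kept probe set of Hsp90b1 had the opposite sign, -1.35 between BNST and dStr, and was not called either.

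Among the 12 tested HSP70 and HSP110 genes, Hspa1a, which encodes the HSP70 that cells make upon heat and other stress, was the one that passed. Its probe set (1452388_at) read 139, 125 and 129 in BNST, 104, 99.2 and 111 in NAc and 81, 70.0 and 72.4 in dStr. The regions did not overlap in any pair, with BNST highest, NAc between and dStr lowest. Means were 131 ± 7.12 (SD, n = 3), 105 ± 5.9 and 74.5 ± 5.81. The difference between BNST and dStr was 0.70, or 1.62-fold on that scale (SE 0.12, adjusted p = 0.00339), and it passed under all 22 alternatives tried, with adjusted p from 0.00167 to 0.0202. NAc lay 0.42 above dStr (adjusted p = 0.133) and 0.28 below BNST (adjusted p = 0.344), and neither step passed.

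Hspa1b, the neighbouring copy that encodes an almost identical protein, had the same order of regional means. It read 270.1, 238 and 256 in BNST (1452318_a_at), 211, 220.2 and 191 in NAc and 202, 192 and 170.1 in dStr. All BNST arrays were above all others, while NAc and dStr overlapped. The difference of 0.41 between BNST and dStr (SE 0.12, adjusted p = 0.0533) just missed the threshold and passed in 7 of the alternatives. Probe sets of near-identical copies can bind each other's RNA, which was not tested here, so the 2 genes are not independent evidence. Several cell-type markers moved in the same direction as Hspa1a. Of the 10 tested ependymal markers 9 were higher in BNST than in dStr, with summed intensities from 2218 to 4524 in BNST, 713 to 764 in NAc and 655 to 756 in dStr, where Tmem212 and Enkur were at the floor of 15 on every array. Of the 10 astrocyte markers 5 were higher, with sums from 12457 to 14275 in BNST, 9847 to 10447 in NAc and 9093 to 9482 in dStr, and 7 of the 8 tested BNST and extended amygdala markers were higher, Sp8 among them being at the floor on every dStr array. Of the 5 ventral striatum markers 4 were higher in BNST than in dStr (Cartpt, Cbln4, Dlk1 and Wfs1, median difference of the list 1.60), with sums from 1947 to 3334 in BNST, 4790 to 5695 in NAc and 780 to 1073 in dStr. Of the 4 tested choroid plexus markers Otx2 alone was higher, with sums from 914 to 1386 in BNST, 697 to 795 in NAc and 680 to 784 in dStr, and Otx2 was at the floor on every NAc and dStr array. Their part in the Hspa1a difference was not tested.

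The stretches before the start sites of Hspa1a and Hspa1b are shown because these copies had the highest mean in the same region and because heat shock factor binds there. Sequences are from RefSeq on GRCm38.p6 and run 5′ to 3′ on the gene's strand. Each gives the 250 bases before the start, chr17:34972157-34972406 for Hspa1a and chr17:34959239-34959488 for Hspa1b, both on the minus strand. Capitals mark a heat shock element of 2 inverted units, searched as GAANNTTC or TTCNNGAA. Each pattern is its own reverse complement, so both strands were covered.
Hspa1a: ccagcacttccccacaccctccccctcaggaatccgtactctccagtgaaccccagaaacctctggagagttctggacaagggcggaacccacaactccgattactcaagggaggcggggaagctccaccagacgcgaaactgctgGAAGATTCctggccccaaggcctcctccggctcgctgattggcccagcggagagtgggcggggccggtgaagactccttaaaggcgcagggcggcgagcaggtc
Hspa1b: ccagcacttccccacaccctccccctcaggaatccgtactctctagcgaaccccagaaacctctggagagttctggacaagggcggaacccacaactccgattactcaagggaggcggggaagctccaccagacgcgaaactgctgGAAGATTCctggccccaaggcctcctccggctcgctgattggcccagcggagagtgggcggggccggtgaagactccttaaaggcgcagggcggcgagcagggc
The printed stretches differed at 3 of 250 bases (98.8% identical), and both held the element 97 to 104 bases before the start. Of the 87 member genes 72 had a window of 250 bases before to 50 after the start, and 21 of them held at least 1 such element (29.2%), against 17.0% of 27025 genes with a window. The longer form, in which one more inverted unit follows at the same spacing, was in the windows of 4 members, Dnajb6, Hspd1, Hspe1 and Hsph1 (5.56%), against 0.662% of all genes. Of the 7 members called between BNST and dStr 6 had a window, and those of Hspa1a and Hspb8 held the 2-unit form. A match of letters is a description of the window and not a binding site.

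Textbook targets of heat shock factor 1, the factor that switches on these genes in stressed cells, were counted apart. The 14 listed were Hspa1a, Hspa1b, Hspa8, Hsph1, Hsp90aa1, Hsp90ab1, Hspb1, Hspd1, Hspe1, Hspa4l, Dnaja1, Dnajb1, Dnajb4 and Bag3. Of the 13 tested, 1 was higher in BNST than in dStr (against 4.94% of all genes) and 0 were lower (against 9.33%). Their median difference was -0.03, against -0.06 for all genes, and none passed in the other comparisons. Of the 11 with a promoter window 9 held the 2-unit element (81.8%, against 17% of all genes with a window). The 3-unit form was in 3 (27.3%, against 0.662%). The list was drawn from known targets of this factor, so these shares only describe the list. The heat-inducible J-protein gene Dnajb1 read 776, 519 and 654 in BNST, 709.7, 674 and 712 in NAc and 789.9, 638 and 722 in dStr, and the 3 regions overlapped. Bag3, a co-chaperone gene induced with them, read 74.5, 76.7 and 63.1, 73.5, 84.7 and 75.6 and 67.7, 68.7 and 78, again with overlap of all regions. Its difference between BNST and dStr had a 95% confidence interval of -0.28 to 0.28.

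The constitutive HSP70 genes did not pass in any comparison. Hspa8, the abundant cytosolic HSP70 that uncoats clathrin vesicles, read 5842, 6024 and 5657 in BNST (1455789_x_at), 5755, 6249 and 5796 in NAc and 6362, 6135 and 6162 in dStr. BNST lay just below dStr on every array, by -0.09 (95% confidence interval -0.34 to 0.16, adjusted p = 0.641). Hspa5, the HSP70 of the endoplasmic reticulum known as BiP, read 1539, 1324 and 1231, 895, 1229 and 1391 and 1276, 1021 and 1144, with NAc 1 lowest and overlap throughout. Hspa9, the mitochondrial HSP70, read 984, 1044 and 1192, 1128, 992 and 1114 and 1062, 982 and 1090.1. All regions overlapped for both of these genes, the differences between BNST and dStr being 0.25 (adjusted p = 0.4) and 0.04 (adjusted p = 0.891).

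Other relatives of HSP70 showed wider differences that did not pass. Hspa2, a form abundant in testis, read 469, 227 and 331 in BNST, 136, 228 and 201 in NAc and 228, 175 and 232 in dStr. BNST 1 was the highest of all arrays and NAc 1 the lowest, and BNST overlapped both other regions (difference from NAc 0.78, SE 0.26, adjusted p = 0.186). Hspa12a, a distant member of the family, read 229, 183 and 193, 202, 160.0 and 193 and 164, 124 and 156, and stood higher in BNST than in dStr on every array by 0.41 (adjusted p = 0.107). Hspa13, of the endoplasmic reticulum, read 525, 436 and 512, 572, 628 and 449.8 and 370.3, 435 and 374; it was named after its values were seen, and dStr lay below the other regions on all its arrays (NAc minus dStr 0.46, adjusted p = 0.205).

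The HSP110 genes, which act as nucleotide exchange factors for HSP70, did not pass with the probe sets that stand for them. Hsph1, also called Hsp105, read 1469, 1194 and 1299 in BNST (1425993_a_at), 2459, 2047 and 1626 in NAc and 1830.1, 2248 and 1755 in dStr. Every BNST array was below every other array, while NAc and dStr overlapped. The difference was -0.61 from NAc (SE 0.17, adjusted p = 0.118) and -0.55 from dStr (SE 0.17, adjusted p = 0.0628), and neither passed. Hspa4 read 2066, 1178 and 1313, 884, 1783 and 1759 and 1841, 2103 and 1857 (1435194_at), with BNST 1 near the dStr arrays and NAc 1 the lowest of all. Its difference between BNST and dStr was -0.39 (adjusted p = 0.403). Hspa4l read 557, 417 and 389, 364, 447 and 444 and 503, 454 and 464 (1449010_at), a difference of -0.07 (adjusted p = 0.807).

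Of the 5 tested genes in the small heat shock group, which was drawn by gene name alone and includes Hspb11, Hspb8 passed. Hspb8, the partner of Bag3 in the removal of misfolded proteins by autophagy, read 183, 148 and 141 in BNST (1417014_at), 156, 159 and 179 in NAc and 279, 227 and 318 in dStr. All dStr arrays were above the other 6, and BNST and NAc overlapped. BNST was lower than dStr by 1.67-fold (log2 difference -0.74, SE 0.16, adjusted p = 0.0101), and NAc lay below dStr by 1.6-fold without passing (difference -0.67, adjusted p = 0.0581). The call was lost without BNST 3 or dStr 3 and with the mean of the gene's 3 kept probe sets (adjusted p 0.00269 to 0.0746 over the alternatives). Of its other probe sets, 1417013_at read 147, 152 and 147, 151, 161 and 169 and 163, 159.7 and 166, a difference of -0.12 between BNST and dStr.

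Hspb6, also called Hsp20, read 89.3, 105 and 126 in BNST (1436332_at), 73.9, 76 and 79.9 in NAc and 75, 73.9 and 73.4 in dStr. All BNST arrays were above all others, and the 6 arrays of NAc and dStr lay within a few units of each other. The difference of 0.44 from dStr (SE 0.13, adjusted p = 0.0551) missed the threshold, and 7 of the alternatives called it. Hspb1, also called Hsp25, read 301, 274 and 283, 267, 286 and 302 and 269, 344 and 271, with overlap of all regions and a BNST to dStr difference of -0.03 (95% confidence interval -0.33 to 0.26). Hspb3, known from muscle and named here after its values were seen, read 65, 894 and 492 in BNST, 663, 99.6 and 65.6 in NAc and 70.7, 69.3 and 119.9 in dStr. BNST 2, BNST 3 and NAc 1 were high and the other 6 arrays low. That gave Hspb3 the widest spread of the members within BNST and NAc (ranges of 3.49 and 3.06 on the log2 scale), and its difference of 1.74 between BNST and dStr had an SE of 0.90 (adjusted p = 0.235).

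The mitochondrial chaperonin genes Hspd1 (Hsp60) and Hspe1 (Hsp10) stand head to head on chromosome 1 and share a promoter. Their windows overlap by 285 bases. The 250 bases before the Hspe1 start, chr1:55087898-55088147 on the plus strand (GRCm38.p6), are shown because this stretch serves both genes and holds overlapping 3-unit elements, the capitals, 72 to 89 bases before the start.
Hspe1: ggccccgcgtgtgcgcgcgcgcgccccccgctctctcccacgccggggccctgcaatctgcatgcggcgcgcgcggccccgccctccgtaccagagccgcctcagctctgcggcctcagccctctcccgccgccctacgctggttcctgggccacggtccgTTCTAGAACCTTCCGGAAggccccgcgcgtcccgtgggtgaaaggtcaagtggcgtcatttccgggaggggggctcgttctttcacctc
Hspd1 read 1282, 1171 and 1260.4 in BNST (1426351_at), 1026, 1229 and 1250.2 in NAc and 1045, 1091 and 1127 in dStr. Hspe1 read 473, 344 and 659, 585, 488 and 469 and 478, 621 and 488 (1450668_s_at). For Hspd1 the BNST arrays were all above dStr, and for Hspe1 all regions overlapped, with BNST 2 lowest and BNST 3 highest. The differences between BNST and dStr were 0.18 (adjusted p = 0.373) for Hspd1 and -0.14 (adjusted p = 0.721) for Hspe1.

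J-proteins made up more than any other group, with 40 tested genes. None of the 4 class A genes passed in any comparison, and their differences between BNST and dStr ran from -0.30 to 0.10. Dnaja1, the main class A J-protein of the cytosol, read 2792, 2494 and 2587 in BNST, 2994, 2707 and 2594 in NAc and 2356, 2996 and 2333 in dStr, with overlap of all regions. Of the 12 tested class B genes 1 passed, and their median difference between BNST and dStr was -0.16. Of the 24 tested class C genes 3 passed, all lower in BNST than in dStr. Together 4 of the 40 J-protein genes were lower there and 0 higher, against 9.33% and 4.94% of all genes. The class C differences between BNST and dStr ran from -1.65 to 0.46 with a median of -0.07, against -0.06 for all genes.

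Dnajb5 was the class B gene that passed. It read 495, 189 and 232 in BNST (1450436_s_at), 283, 519 and 411 in NAc and 755, 595 and 616 in dStr. BNST 1 stood well above the other BNST arrays, and all dStr arrays were above all arrays of both other regions. The difference of -1.17 between BNST and dStr (2.26-fold, SE 0.32, adjusted p = 0.0341) was lost in 9 of 22 alternatives, among them each omission of BNST 2, BNST 3 and any dStr array, the replicate block and the mean of its 3 probe sets (adjusted p 7.33e-05 to 0.285 over the alternatives). Its other kept probe sets gave -0.27 and 0.24 and did not pass. Dnajb4, a heat-inducible class B gene, read 645, 396 and 559, 888, 708 and 564 and 677, 815 and 799. BNST lay below dStr on every array, by -0.53 (adjusted p = 0.124).

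The other class B genes on the list of named genes did not pass. Dnajb2, a neuronal J-protein with ubiquitin-interacting motifs, read 565, 552 and 547 in BNST, 492, 512 and 564 in NAc and 513, 415 and 461 in dStr. BNST was above dStr on every array, by 0.26 (adjusted p = 0.21). Dnajb6, which keeps polyglutamine proteins from aggregating, read 1086, 855 and 943, 834, 1372 and 1206 and 1006, 1201 and 1059, with NAc 1 the lowest array and NAc 2 the highest. Dnajb9, an induced J-protein of the endoplasmic reticulum, read 816, 505 and 749, 752, 991 and 793 and 589.9, 764 and 719. All regions overlapped for both, and the differences between BNST and dStr were -0.18 (adjusted p = 0.569) and -0.02 (adjusted p = 0.959).

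The class C genes that passed were Dnajc2, Dnajc13 and Dnajc21. Dnajc13, also called RME-8, which works on endosomes with Hspa8, read 254, 255 and 264 in BNST (1434038_at), 302, 373 and 313 in NAc and 413, 388 and 407 in dStr. No regions overlapped, with BNST lowest, NAc between and dStr highest. Means were 258 ± 5.51 (SD, n = 3), 329 ± 38.3 and 403 ± 13. The difference between BNST and dStr was -0.61 (1.53-fold, SE 0.12, adjusted p = 0.00826). It passed in 21 of 22 alternatives and was lost with the mean of 2 probe sets (adjusted p 0.00588 to 0.119 over the alternatives), since the dimmer probe set, 1445337_at, read 193, 182 and 172 in BNST and 168, 203 and 159.5 in dStr.

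Dnajc2, a J-protein that sits on ribosomes at the exit of nascent chains, had the widest called difference. It read 396, 179.6 and 137 in BNST (1448794_s_at), 188, 458 and 488 in NAc and 658, 691 and 780.0 in dStr. All dStr arrays were above all others, but BNST 1 was far above the other BNST arrays and NAc 1 far below the other NAc arrays. BNST lay below dStr by -1.65 (3.13-fold, SE 0.39, adjusted p = 0.0189). Its second probe set, 1417657_s_at, read 162, 101 and 151, 108, 259 and 348 and 498, 401 and 516, a difference of -1.68 (adjusted p = 0.00981 over all kept probe sets). The gene's call was lost in 6 of 21 alternatives, namely without BNST 2, BNST 3 or any 1 dStr array and with the replicate block, where adjusted p reached 0.0865 at most (lowest 7.79e-06).

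Dnajc21, which acts in the maturation of the large ribosomal subunit, read 258, 277 and 294 in BNST (1420219_at), 369, 508 and 388 in NAc and 548, 556 and 444 in dStr. BNST was below all other arrays, and NAc and dStr overlapped. The difference from dStr was -0.86 (1.81-fold, SE 0.16, adjusted p = 0.0049) and from NAc -0.57 (adjusted p = 0.0982). This direction rests on 1 of 5 kept probe sets. The others, all dimmer, gave -0.09, 0.18, 0.27 and 0.60 between BNST and dStr, and the mean of the 5 gave 0.02 (adjusted p = 0.941; 0.00306 to 0.941 over the alternatives), which turns the direction.

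Markers of several cell types moved with the genes that were lower in BNST. All 10 tested medium spiny neuron markers were lower in BNST than in dStr, with summed intensities from 3419 to 8048 in BNST, 14506 to 20017 in NAc and 26453 to 29163 in dStr. Microglial markers were lower for 6 of 8, with sums from 2829 to 3580 in BNST, 3638 to 4311 in NAc and 4811 to 4963 in dStr. Immediate early genes, which follow neuronal activity, were lower for 8 of 15, with sums from 3002 to 6548, 5124 to 6619 and 9984 to 13904. Of the 8 tested endothelium and pericyte markers 1, Abcc9, was lower by the test, and all 8 differences were below 0 (median -0.30, the nearest to 0 being -0.09), with sums from 1436 to 1479 in BNST, 1467 to 1583 in NAc and 1880 to 1989 in dStr. The BNST and dStr sums did not overlap. No marker of these 4 lists was at the floor on all arrays of a region. Oligodendrocyte markers passed for 0 of 9, by the test and in either direction, with sums from 16402 to 18098 in BNST and 16490 to 18376 in dStr. The part of these cells in the chaperone differences was not tested. NAc lay between BNST and dStr in mean for all 7 members called between these regions, and for 91.7% of the 2027 genes so called on the whole array.

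**Figure D2:**
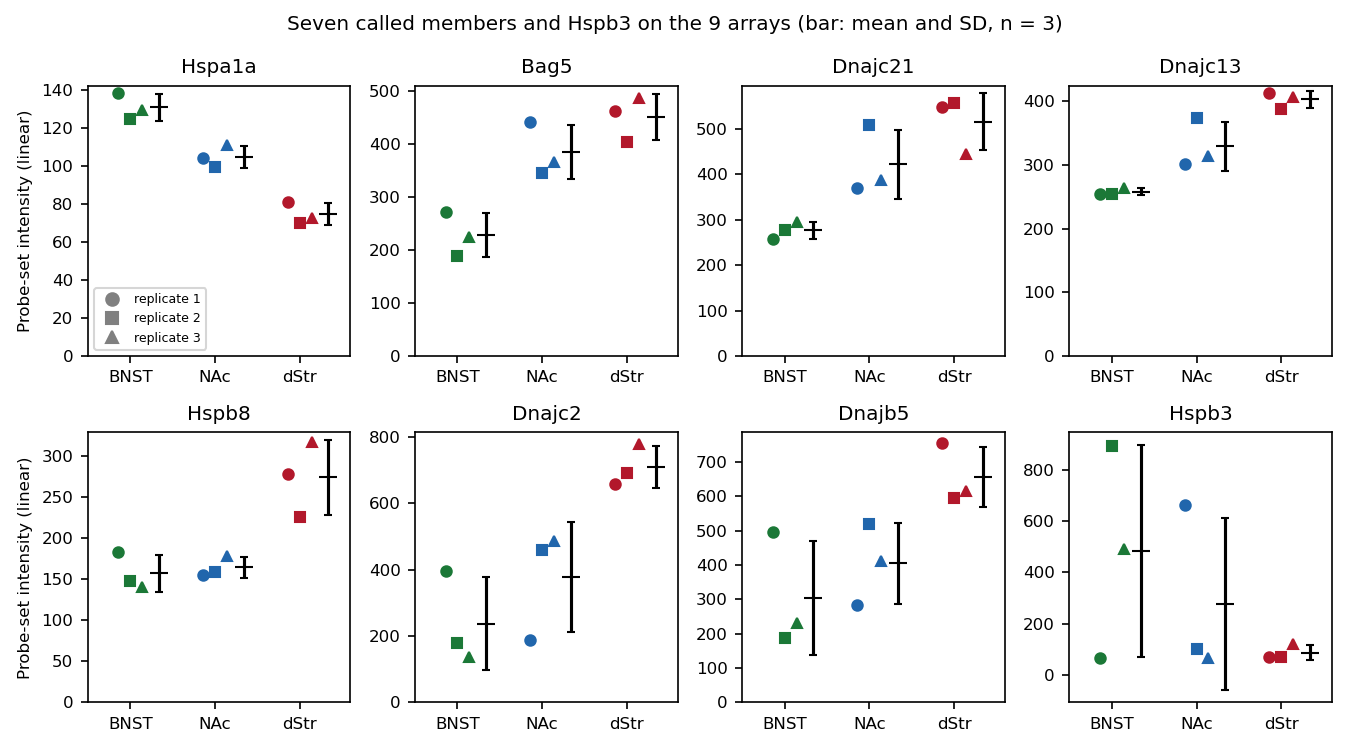
Linear probe-set intensity on each of the 9 arrays for the 7 members called between BNST and dStr and for Hspb3, with the mean and SD of 3 arrays as black bars and the replicate number as the symbol. Hspa1a falls from BNST (125 to 139) through NAc to dStr (70.0 to 81.0), the next 6 genes rise in that order, and for Dnajc2, Dnajb5 and Hspb3 the replicate 1 arrays of BNST and NAc lie apart from the others of their region; the Hspb3 axis extends below 0 for its SD bar alone.

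Dnajc5, Dnajc6 and Dnajc12 are class C genes from the list of named genes that did not pass. Dnajc5, the cysteine string protein of synaptic vesicles, read 1411, 1164 and 1525 in BNST, 1196, 1393 and 1437 in NAc and 1229, 1259 and 1235 in dStr, and the regions overlapped. Dnajc6, auxilin, the neuronal J-protein of clathrin uncoating, read 1306, 936 and 1224, 1075, 931 and 932 and 955, 1039 and 868, with overlap throughout. Their differences between BNST and dStr had 95% confidence intervals of -0.18 to 0.44 and -0.08 to 0.60. Dnajc12, a J-protein of the aromatic amino acid hydroxylases, read 312, 310.4 and 339.8 in BNST, 299, 295 and 295 in NAc and 253, 291 and 247 in dStr. The 3 regions did not overlap in any pair, with BNST highest and dStr lowest, yet the difference of 0.27 between them did not pass (SE 0.12, adjusted p = 0.166).

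Dnajc3, an inhibitor of the kinase PERK and co-chaperone of the endoplasmic reticulum, read 300.0, 182 and 260.5 in BNST, 138, 267 and 286 in NAc and 294, 307 and 277 in dStr. NAc 1 was the lowest array, and the difference between BNST and dStr was -0.25 (adjusted p = 0.556). Dnajc7, which passes clients between HSP70 and HSP90, read 1129.9, 873 and 928, 937, 1099.8 and 1304 and 1065, 1139 and 1343, with overlap of all regions (difference -0.27, adjusted p = 0.309). Of the other class C genes, Dnajc17 and Dnajc27 were picked out after their values were seen. Dnajc17, a J-protein linked to splicing, read 410.2, 175 and 281, 167, 339 and 537 and 467, 349 and 581, a spread within NAc that only Hspb3 exceeded among the members. Dnajc27, which carries a Rab-like GTPase domain, read 379, 369 and 380.1, 531, 338 and 393 and 310.0, 211 and 296, and dStr lay below both other regions on every array (NAc minus dStr 0.59, adjusted p = 0.177). Between BNST and dStr this probe set gave 0.46 and the gene's other kept probe set -0.47, neither of them called.

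The CCT chaperonin is a ring of different subunits that folds actin and tubulin. None of the 8 tested Cct genes, grouped by name and including Cct8l1, passed in any comparison. Their median differences were -0.04 for BNST minus NAc, 0.05 for BNST minus dStr and 0.15 for NAc minus dStr. Cct6a read 1685, 1706 and 1654 in BNST (1423517_at), 2189.7, 1449 and 1651 in NAc and 1097, 1267 and 1155 in dStr. All dStr arrays were below the other 6, the difference being 0.52 from BNST (SE 0.16, adjusted p = 0.0544, called by 7 of the alternatives) and 0.56 for NAc minus dStr (adjusted p = 0.127). Cct7 read 1090.3, 1329.5 and 1514, 1864, 1071 and 1184 and 872, 953 and 912. It too had all dStr arrays lowest, with NAc 1 the highest array (BNST minus dStr 0.50, SE 0.21, adjusted p = 0.136).

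With the probe sets that stand for them, the other subunits did not follow that order. Cct2 read 1899, 1485 and 1695 in BNST, 1204, 1953 and 2242 in NAc and 1711, 1774 and 1733 in dStr. Cct3 read 1871, 1752 and 2004, 2266, 1767 and 2160.2 and 1825, 1917 and 1796. Cct5 read 857, 707 and 771, 955, 874 and 858 and 739, 781 and 781. NAc 1 was the lowest of the 9 arrays for Cct2 and the highest for Cct3 and Cct5, so that subunits of 1 complex lay apart in opposite directions on that array. Cct4 read 1792, 1198 and 1483, 1234, 1579.9 and 1779.6 and 1548, 1409.5 and 1388, and Cct8 read 572, 349.8 and 393, 267, 433 and 557 and 359, 329 and 394. For both, BNST 1 was the highest array. The differences between BNST and dStr of Cct2, Cct3, Cct4 and Cct5 ran from -0.05 to 0.02, and that of Cct8 was 0.24 (adjusted p = 0.571). Over all kept probe sets they ran from -0.14 to 0.17 for Cct2 and from -0.11 to 0.84 for Cct3. For Cct4 they ran from -0.32 to 0.67, and no probe set of these genes was called. Tcp1, which encodes the first subunit and falls outside the naming rule, read 2246, 2169 and 2231 in BNST, 2490.2, 2496 and 2393 in NAc and 2107, 2502 and 2167 in dStr (BNST minus dStr -0.02, adjusted p = 0.923).

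Bag5 was the member with a call in 2 comparisons. It encodes a BAG protein that exchanges the nucleotide of HSP70 and is known to bind parkin. It read 271, 189 and 224 in BNST (1452628_at), 442, 345 and 366 in NAc and 463, 403 and 487 in dStr. BNST was below all other arrays, while NAc and dStr overlapped. Means were 228 ± 41.3 (SD, n = 3), 384 ± 51 and 451 ± 43.3. BNST was lower than dStr by 1.93-fold (log2 difference -0.94, SE 0.16, adjusted p = 0.00349), a call kept in all 22 alternatives (adjusted p 0.000342 to 0.0317). It was lower than NAc by 1.65-fold (-0.72, SE 0.16, adjusted p = 0.0499), a call lost in 17 of 22 alternatives, including the omission of BNST 2, BNST 3 or any array of NAc or dStr (adjusted p 0.0117 to 0.403). The second kept probe set of Bag5, 1432638_at, read 69, 98.5 and 95.1, 113, 76.5 and 55.4 and 94.1, 103 and 88.1, a difference of -0.11 between BNST and dStr.

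The other 5 BAG genes did not pass in any comparison. Bag1, which ties HSP70 to the proteasome, read 445, 337 and 473 in BNST, 398, 639.5 and 584 in NAc and 462, 468 and 512 in dStr, with NAc 1 below both other NAc arrays (BNST minus NAc -0.34, adjusted p = 0.536). Hspbp1, another nucleotide exchange factor and picked out after its values were seen, read 365, 383 and 615, 273, 269 and 426 and 234, 314 and 252. BNST was above dStr on every array, with BNST 3 far above the rest, and the difference of 0.71 (SE 0.23, adjusted p = 0.0721) did not pass.

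Genes of the wider folding machinery that the name rule leaves out were listed apart. Of 72 listed, 66 were tested, and between BNST and dStr 4 were higher in BNST (6.06%, against 4.94% of all genes) and 2 lower (3.03%, against 9.33%). Among the members the lower calls were the more numerous (7.79%, against 1.30% higher), as they were among all genes. Under quantile normalisation that order turned among the members and among all genes. There 9 members were higher (11.7%, against 8.92% of all genes) and 6 lower (7.79%, against 8.2%). The median difference of the listed genes was -0.06, as for all genes, with none called in the other comparisons. In the HSP90 and HSP70 co-chaperone list of 18 tested genes, Ahsa2, an activator of the HSP90 ATPase, was higher (0.91, SE 0.16, adjusted p = 0.00455) and Sgtb lower (-0.64, adjusted p = 0.0374). Ahsa2 read 429, 397 and 304 in BNST, 249, 335 and 279.8 in NAc and 208, 189 and 177 in dStr, with every BNST array above every dStr array. Among 12 chaperonin partners and prefoldin genes the prefoldin subunit gene Vbp1 was higher (0.60, adjusted p = 0.0447), and Mkks, a chaperonin-like gene of Bardet-Biedl syndrome, lower (-1.07, adjusted p = 0.00438). Among 22 genes of folding in the endoplasmic reticulum, the disulphide isomerase gene Pdia6 (0.62, adjusted p = 0.0408) and the collagen chaperone gene Serpinh1 (0.54, adjusted p = 0.0137) were higher. The 4 tested HSF regulator genes, the 9 of mitochondrial folding and proteolysis and Cryab did not pass.

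Probe sets of the same gene often disagreed, which bears on each level given above. More than 1 probe set was kept for 44 of the 77 genes, and for 24 of these at least 1 other probe set had the opposite sign between BNST and dStr. Tested as 158 separate probe sets, 2 were higher in BNST than in dStr (1.27%, against 4.33% of 29293) and 14 lower (8.86%, against 9.31%), and limma called 0 between BNST and NAc (0.642% higher and 1.16% lower over all probe sets) and 0 between NAc and dStr (0.724% and 0.959%). An unadjusted p under 0.05 was reached by 15 member probe sets for BNST against NAc (9.49%, against 12.5% of all probe sets), 39 for BNST against dStr (24.7%, against 28.4%) and 21 for NAc against dStr (13.3%, against 12.9%). The 14 became 9 without BNST 2, 8 without BNST 3 or dStr 2, 7 without dStr 1 and 6 without dStr 3, and the 2 became 5, 6 and 4 without BNST 1, NAc 1 and NAc 2. In 6 genes a called probe set was not the one that stands for the gene. Hspa4l had calls in both directions. Its probe set 1418253_a_at read 231, 256 and 249 in BNST, 231, 175 and 143 in NAc and 126, 143 and 115 in dStr, a difference of 0.86 (adjusted p = 0.00821). Its probe set 1458385_at read 162, 158 and 62.4, 187, 223 and 170.2 and 271, 292 and 287, a difference of -1.16 (adjusted p = 0.0208), and 1429106_at gave -0.64 (adjusted p = 0.0406). Each of these probe sets separated BNST from dStr without overlap, and which transcripts they read was not tested.

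**Figure D3:**
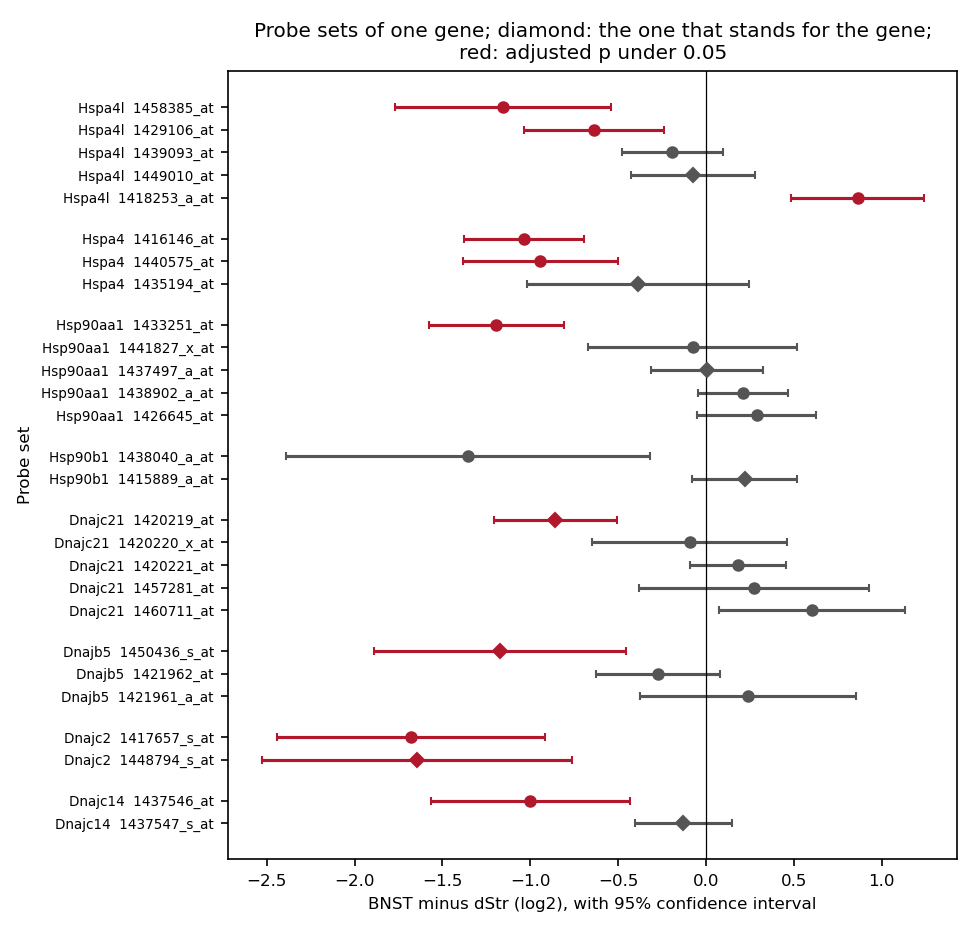
Difference between BNST and dStr (log2 scale, with 95% confidence interval) for every kept probe set of 8 member genes. Diamonds mark the probe set that stands for the gene and red an adjusted p under 0.05, adjusted over all 29293 kept probe sets; the Hspa4l probe sets range from -1.16 to 0.86, those of Dnajc2 coincide, and of the 5 for Dnajc21 only the brightest is red.

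The same was seen in Hsp90aa1 and Hspa4. A dim probe set of Hsp90aa1, 1433251_at, read 80.5, 63.9 and 59.4 in BNST, 81.7, 131 and 93.2 in NAc and 165, 189.8 and 171 in dStr, lower in BNST by -1.19 (adjusted p = 0.00171), while the brightest gave 0.01. Both dimmer probe sets of Hspa4 were lower in BNST, 1416146_at by -1.03 (adjusted p = 0.00192) and 1440575_at by -0.94 (adjusted p = 0.0113), and the brightest gave -0.39 with its spread of BNST 1 and NAc 1. Dnajc14, an escort of the dopamine D1 receptor in the endoplasmic reticulum and picked out after its values were seen, had a called probe set (1437546_at, -0.999, adjusted p = 0.0278) and another that gave -0.13. The dimmer probe set of Dnajb4, 1439524_at, was also called (-0.48, adjusted p = 0.0451), close to the -0.53 of the brighter.

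Replicate spread differed between the regions. The median range of a member over the 3 arrays of a region was 0.34 in BNST, 0.47 in NAc and 0.24 in dStr on the log2 scale, against 0.36, 0.42 and 0.27 for all genes. Ranges over 1 were found for 4 of 77 members in BNST, 5 in NAc and 0 in dStr, against 5.07%, 8.83% and 1.75% of all genes. BNST 1 was the highest BNST array and at the same time NAc 1 the lowest NAc array for 28 of 77 members (36.4%, against 31.1% of all genes), and the reverse held for 8 (10.4%, against 14.8%). Hspa2, Hspa4, Cct2, Cct4, Cct8, Dnajb5, Dnajc2 and Dnajc17 are among the 28, and Hspb3 and Cct7 among the 8. NAc 1 alone was the highest or the lowest of all 9 arrays for 28 members (36.4%, against 30.6% of all genes). Without BNST 1 and NAc 1, Hspb3, Hspb6, Hspbp1, Cct6a and Cct7 joined Hspa1a above dStr, and Hspa4, Hsph1, Dnajb4, Dnajc15, Dnajc16 and Dnajc17 joined the 6 below it. That made 7.79% of members higher (against 8.61% of all genes) and 15.6% lower (against 20.6%). Both arrays were left out after their values were seen, and for Hspb3 they are the arrays that depart from their regions.

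**Figure D4:**
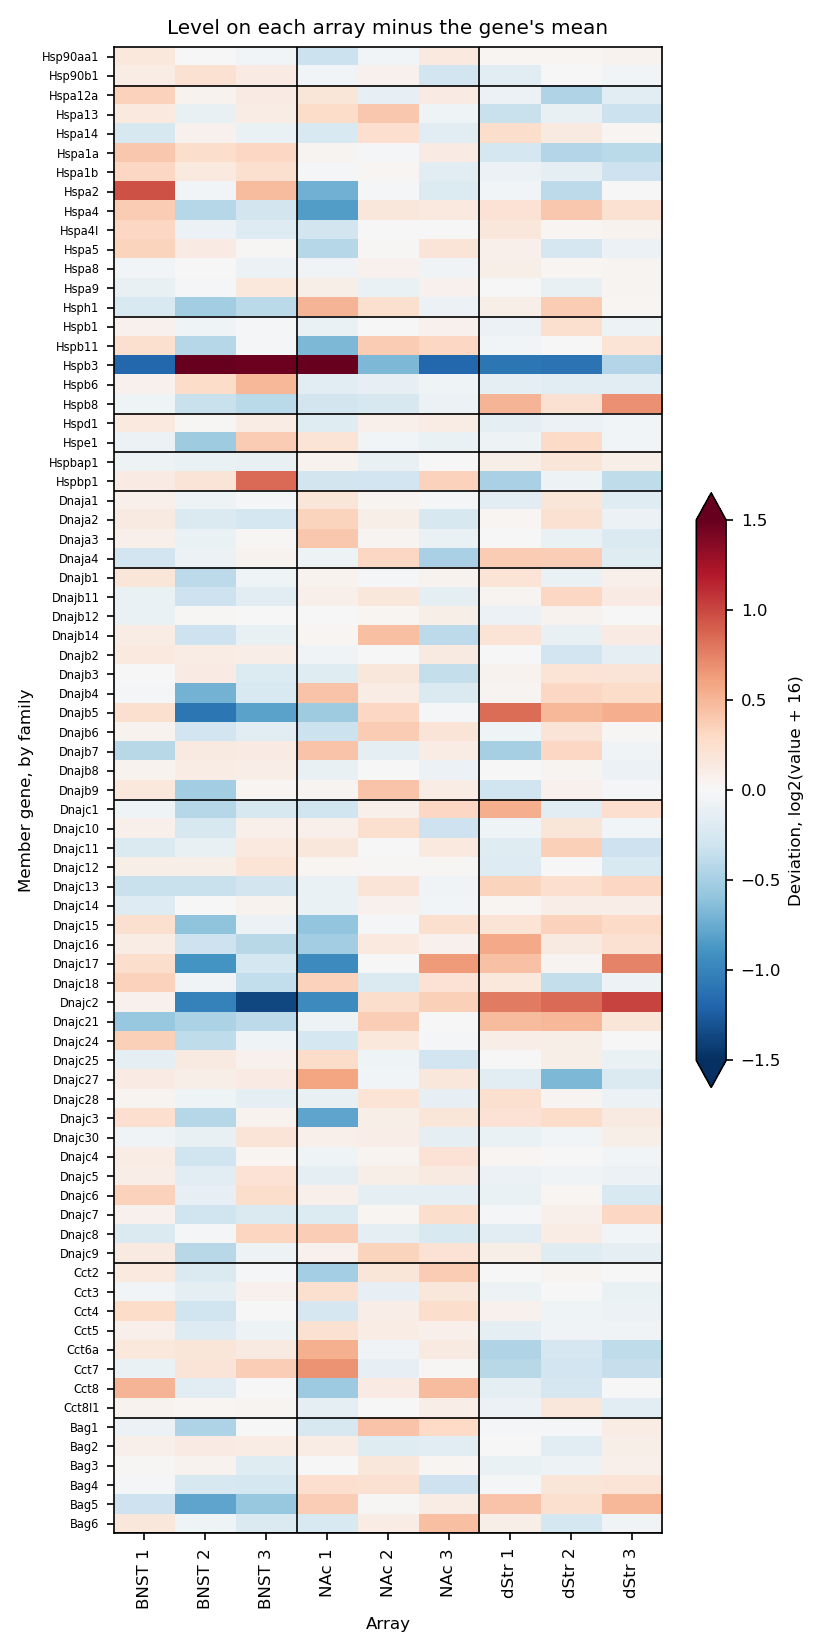
Deviation of each of the 77 member genes (rows, by family, with lines between families) from its own mean over the 9 arrays (columns), in log2(intensity + 16), red above and blue below. The dStr columns are more alike than the columns within BNST or within NAc. Bag5, Dnajc2, Dnajc13 and Dnajc21 turn from blue to red from BNST to dStr, and BNST 1 and NAc 1 carry opposite colours for Hspa2, Hspa4 and Hspb3.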

How the data were processed

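The deposited table holds linear probe-set intensity values for 45037 probe sets on 9 Affymetrix Mouse430_2 arrays. Per the labels, 10 ng of total RNA was amplified in repeated rounds and labelled with biotin. How the intensities were summarised and scaled is not given in the sources used here. Low signals stood at a floor of 15. With 9 arrays, their number limits the precision.

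Symbols came from GEO's platform annotation (34945 probe sets with 1 symbol, 932 with several, 9160 with none), 34741 of them matched by Entrez identifier and 0 changed. The filter, the representative probe sets and the scale are those given above. One linear model over the 9 arrays was fitted with limma 3.58.1 in R 4.3.3, without a block, and p-values were 2-sided. On simulated data of 14208 genes for BNST against dStr, 60% of log2 changes of 1 and 95% of changes of 2 were recovered with 5 false calls. The changes were put into 100 genes per size, all above the median level, so recovery in dimmer genes was not simulated. Deviations of same-numbered arrays correlated at -0.51 to 0.26, the lowest value being that of BNST 1 with NAc 1. The numbers were not taken to pair the samples, but this check cannot exclude a pairing.

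Named were called members (up to 10 per comparison and direction), members passing the F test, and 41 much-studied members, of which 39 were tested. Members and lists were chosen with earlier results of these data known. Alternatives were 2 other scalings, 2 filters, 3 treatments of probe sets, 2 pseudocounts, another variance model, a replicate block, the arrays of a pair alone, and the omission of each array or of BNST 1 with NAc 1. Counts over probe sets were added after the data were seen.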

Additional observations from a re-analysis of the deposited data

How the results depend on the processing

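The calls of Hspa1a and Bag5 between BNST and dStr held under all 22 alternatives, those of Dnajc13 and Dnajc21 under 21, that of Hspb8 under 19, of Dnajc2 under 15 of 21 and of Dnajb5 under 13. The direction of Dnajc21 turned with the mean of its probe sets (0.022, adjusted p = 0.941, from 0.00306 over the alternatives). The cause was not tested.

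Member genes higher in BNST than in dStr, 1 in the fit reported, were 9 under quantile normalisation, 4 under median centring and with the arrays of the pair alone, 3 with no filter, the mean of probe sets or a pseudocount of 64, 2 with a pseudocount of 1 or the trend and robust prior, 6 without BNST 1 and NAc 1, and 1 to 4 with single arrays left out. Those lower, 6, were 12 without BNST 1 and NAc 1 (15.6%, against 20.6% of all genes) and 3 to 7 with single arrays left out. Against NAc, 1 member was higher with no filter and 2 without BNST 1 and NAc 1 (0 to 0 with single arrays left out). The 1 member lower became 0 under both scalings, with no filter, the mean of probe sets, every probe set tested, a pseudocount of 1, the trend and robust prior or the pair alone, and 6 without BNST 1 and NAc 1 (0 to 1 with single arrays left out). Between NAc and dStr 1 was lower without BNST 1 and NAc 1, and 0 to 1 with single arrays left out. The F test called 8 under quantile normalisation, 3 with the mean of probe sets, 16 without BNST 1 and NAc 1 and 2 to 8 with single arrays left out. Shares of all genes without BNST 1 and NAc 1, and for BNST against dStr under both scalings, are given above. Shares for the F test and the remaining alternatives were not counted, so whether those counts are particular to the members cannot be told.

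Member probe sets higher in BNST than in dStr, 2 in the fit reported, were 12 under quantile normalisation, 6 under median centring, 4 with no filter or a pseudocount of 64, 1 with unsuffixed probe sets, 5 with the pair alone, 10 without BNST 1 and NAc 1 and 2 to 6 with single arrays left out. Those lower, 14, were 32 without BNST 1 and NAc 1 and 6 to 19 with single arrays left out. Against NAc, 2 were higher and 16 lower without BNST 1 and NAc 1, and 0 to 1 were lower with single arrays left out, as between NAc and dStr. Without BNST 1 and NAc 1 the calls over all genes rose too, to 8.61% higher and 20.6% lower against dStr. Against NAc they rose to 2.46% higher and 13% lower. Shares over all probe sets were not counted for the alternatives.

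With a replicate block, 1 member gene was higher and 4 lower between BNST and dStr, 0 lower between BNST and NAc, 9 probe sets lower between BNST and dStr, and the F test called 4. No same-numbered arrays correlated best with each other. With so few arrays per region this check cannot tell whether same-numbered samples shared an animal, so a pairing was neither shown nor excluded.

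The limits of these data are 3 arrays per region, values at the floor, unknown summarisation, tissue of mixed cells, and probe sets of 1 gene that disagree. A difference that missed the threshold is not shown to be absent: the simulation recovered 60% of changes of 1 on the log2 scale. That figure is for genes above the median level, and changes in dimmer genes were not simulated. Hspa1a and Hspa1b are near-identical copies, and cross-binding of their RNA was not tested.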
